A study of Homo sapiens with 2 samples.

Results

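FOXM1, MYBL2 and the genes of the MuvB and DREAM complexes were followed on 2 expression arrays of the human glioblastoma line U87, 1 labelled FOXM1 siRNA and 1 labelled as a non-target siRNA control. The set comprised 10 genes: the activators FOXM1 and MYBL2, the MuvB core genes LIN9, LIN37, LIN52, LIN54 and RBBP4, the pocket protein genes RBL1 and RBL2, and E2F5. Members were the probe sets whose only gene symbol in the platform annotation, older or current, was one of these names. This gave 24 of 54675 probe sets and 10 of 19775 named genes. Both cultures were grown in DMEM with serum, transfected transiently with a lipid reagent and harvested after 48 hours. No siRNA sequence is given in the labels. Each group holds 1 array of 1 sample of 1 line, so no SD between samples, p-value or test of a difference exists, and every value below compares these 2 arrays as labelled.

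MuvB is a protein core that sits on cell cycle promoters and changes partners through the cycle. In resting cells and in G1 it joins a pocket protein (RBL1, also called p107, or RBL2, also called p130) with E2F4 or E2F5 and a DP protein to form DREAM, which represses cell cycle genes. From S phase the core binds B-MYB, the product of MYBL2, and then FOXM1, and activates genes of G2 and mitosis. FOXM1 is a forkhead transcription factor that is highly expressed in glioblastoma. LIN54 reads the CHR element of target promoters, and the E2F and DP proteins of DREAM read E2F sites. MYBL2 and RBL1 are themselves known targets of E2F factors.

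Promoter windows of the members are shown because the values of these genes lie on both sides of 0 below and because these elements are read by the complexes that the genes encode. Windows of 300 bases (250 before and 50 after an annotated start, RefSeq, build GRCh38.p14) were matched by symbol for 8 of the 10 genes, 14 windows in all. None was found for FOXM1. E2F5 was left out of the search beforehand, so the member windows counted below do not cover it. Capitals mark E2F letters and CHR letters, searched on both strands. The E2F letters were the form TTCCCGC, the same word with CG in place of its first CC (TTCGCGC), the word with GC in that place (TTGCCGC), the word with GG in that place (TTGGCGC) and a further core, GGCGGGA, which was chosen with the MYBL2 window in view. The CHR letters were TTTGAA and, in its second form, TTCGAA. MYBL2 (chr20:43666864-43667163, plus strand) was lower on the FOXM1 siRNA-labelled array and holds GGCGGGA at bases 212 to 218 of the window, counted from its 5′ end. LIN9 (chr1:226309115-226309414, minus strand, 1 of its 3 windows) was also lower and holds 2 CHR matches, TTCGAA at bases 191 to 196 and TTTGAA at bases 248 to 253. LIN54 (chr4:83010774-83011073, minus strand, 1 of its 2 overlapping windows), the gene of the CHR reader, carries TTTGAA at bases 151 to 156. RBL1 (chr20:37095948-37096247, minus strand) has 2 E2F matches side by side, TTCGCGC at bases 226 to 232 and TTGGCGC at bases 236 to 242.
MYBL2: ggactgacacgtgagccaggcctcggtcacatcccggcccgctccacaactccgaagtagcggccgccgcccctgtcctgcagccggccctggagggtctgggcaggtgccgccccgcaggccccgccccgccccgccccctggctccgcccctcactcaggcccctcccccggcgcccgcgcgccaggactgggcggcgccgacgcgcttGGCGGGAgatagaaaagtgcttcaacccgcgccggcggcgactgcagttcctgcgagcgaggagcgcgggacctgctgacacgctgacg
LIN9: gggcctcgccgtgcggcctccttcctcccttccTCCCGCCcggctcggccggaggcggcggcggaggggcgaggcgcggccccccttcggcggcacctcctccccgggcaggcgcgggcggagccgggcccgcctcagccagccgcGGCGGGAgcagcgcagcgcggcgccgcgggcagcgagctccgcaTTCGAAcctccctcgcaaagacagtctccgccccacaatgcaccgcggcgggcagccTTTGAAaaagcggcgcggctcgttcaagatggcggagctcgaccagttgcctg
LIN54: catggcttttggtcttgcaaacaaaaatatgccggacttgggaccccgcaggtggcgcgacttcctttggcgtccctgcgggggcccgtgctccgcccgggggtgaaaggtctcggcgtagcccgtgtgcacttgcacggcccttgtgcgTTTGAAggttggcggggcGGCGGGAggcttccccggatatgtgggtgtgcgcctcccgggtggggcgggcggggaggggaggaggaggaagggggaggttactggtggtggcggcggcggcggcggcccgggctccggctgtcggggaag
RBL1: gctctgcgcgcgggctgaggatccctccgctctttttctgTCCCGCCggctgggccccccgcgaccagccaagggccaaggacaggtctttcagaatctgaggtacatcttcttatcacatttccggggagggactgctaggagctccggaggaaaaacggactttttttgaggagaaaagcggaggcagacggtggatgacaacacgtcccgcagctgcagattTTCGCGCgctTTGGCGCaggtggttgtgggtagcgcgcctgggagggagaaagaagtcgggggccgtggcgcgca

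E2F letters were present in 10 of the 14 windows of the members and in 23.2% of 35116 windows of all genes. Without GGCGGGA, which was chosen on the MYBL2 window, the E2F letters were in 5 of the 14 windows and in 13.0% of all. CHR letters were present in 5 of the 14 member windows, against 16.4% of all windows. The forkhead letters TAAACA were found in 2 member windows, both of RBL2, and in 12.3% of all windows, and the letters CCAAT in 5 member windows and 34.6% of all. In LIN52 and RBBP4 some E2F matches overlap each other. The 2 windows each of RBBP4, LIN54 and LIN37 share part of their bases, as do 2 windows of LIN9, so the windows are not independent. Genes on both sides of 0 held such letters, and a match is a description of the letters in a window.

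Several facts of the arrays bear on all values. Deposited values were MAS5 signal intensities scaled by the authors, with a trimmed mean of 500.1 on both arrays. The floor was the 90th percentile of 135 olfactory receptor probe sets, which should be silent in these cells: 77.7 on the FOXM1 siRNA-labelled array and 60.8 on the non-target-labelled array. The region 9p21 is known to be deleted on both chromosomes in U87, yet CDKN2A read 421 on the FOXM1 siRNA-labelled array and 3467 on the non-target-labelled array. MTAP and CDKN2B were below the floor on the FOXM1 siRNA-labelled array and read 619 and 350 on the non-target-labelled array. CDKN2A, MTAP and CDKN2B thus stood above the floor on the non-target-labelled array, which is at odds with its label U87. On the FOXM1 siRNA-labelled array CDKN2A alone did, which is at odds with that label too if the signal is of CDKN2A. Its brightest probe set, 209644_x_at, is of a kind that can also bind other transcripts. A further CDKN2A probe set above both floors was lower still on the FOXM1 siRNA-labelled array, at -4.35 on the log2 scale. A difference between the cells and an effect of the siRNA cannot be told apart in any result below. Of 10 glioblastoma and glial markers, 5 were at least 2-fold higher, led by TNC (14.1-fold) and CD44 (13.2-fold), and SOX2 was at least 8.75-fold lower on the FOXM1 siRNA-labelled array, VIM and CD44 were far above both floors, and GFAP was below both. Of 7 epithelial markers, DSP and KRT18 were at least 2-fold lower, with a summed signal over the 5 detected of 1100 on the FOXM1 siRNA-labelled array and 12743 on the non-target-labelled array, most of it from DSP (336 and 9707) and KRT18 (380 and 2655). KRT8 lay the other way, at 0.27 on the log2 scale. So did EPCAM, at 0.70 or more, with 98.8 against 48.1, which is below the floor of the non-target-labelled array. CDH1 was at -0.53 or lower, with 20.9, below the floor, on the FOXM1 siRNA-labelled array and 113 on the non-target-labelled array. Of 7 neuronal markers 3 were detected, SNAP25 and GAP43 at least 2-fold higher and TUBB3 at 0.43 on the log2 scale. The summed signal of these 3 was 13348 against 7882, most of it from TUBB3 (10375 and 7687). Of 5 measured leukocyte markers 3 were detected, all under 2-fold (summed 306 against 134). Of 4 endothelial markers 3 were detected, 1 of them higher (summed 379 against 76.2). The leukocyte and endothelial sums rest on signals close to or below the floors. CD3D, ITGAM, VWF and KDR were below the floor on the non-target-labelled array. The 3' to 5' signal ratio of ACTB was 4.21 on the FOXM1 siRNA-labelled array and 6.79 on the non-target-labelled array, and that of GAPDH was 1.09 and 1.26. The part of these differences in the values of the 10 genes was not tested.

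FOXM1, the target of the siRNA, differed little. Its single probe set, 202580_x_at, read 1343 on the FOXM1 siRNA-labelled array and 1520 on the non-target-labelled array. The log2 difference (FOXM1 siRNA minus non-target siRNA throughout) was -0.18, or 0.884 times the control signal. For scale, the log2 differences of the 2 brightest probe sets of a gene differed with an SD of 0.65 over 5476 genes, which corresponds to 0.46 per probe set. FOXM1 lay inside that spread as reported and just past it, at -0.48, with the arrays scaled to the hybridisation controls, where the median of all detected genes was -0.29. The other scalings and a pseudocount left it inside. Other floors and medians over probe sets could not move its single probe set, and without _x_at probe sets FOXM1 had none. Of 13449 detected genes with a fold, 43.1% had a log2 difference as low or lower. Genes below the floor on 1 array entered this share, and those given for other genes, at their bound, so each is a lower limit. Probe sets ending in _x_at contain probes that can also bind other transcripts, and no other FOXM1 probe set carries the symbol alone.

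MYBL2 was lower. The gene encodes B-MYB, the activator that joins MuvB ahead of FOXM1 and whose own transcript marks cycling cells. Probe set 201710_at, its only one, read 533 on the FOXM1 siRNA-labelled array and 1718 on the non-target-labelled array. Both signals stood far above the floors, and the log2 difference of -1.69 is a 3.22-fold lower signal. Among the detected genes, 6.24% were as low or lower. The ID ends in plain _at, which on this platform names probes designed for 1 transcript alone. In a bulk sample, fewer cycling cells and less MYBL2 RNA per cell cannot be told apart.

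Across the set, 4 of the 10 genes were at least 2-fold lower on the FOXM1 siRNA-labelled array (LIN9, E2F5, MYBL2 and RBBP4), 0 were higher by that much and 6 differed by less. Of all 13865 detected genes, 15.4% were lower by 2-fold or more and 16.0% were higher by 2-fold or more. The median log2 difference of the 10 genes was -0.19, against 0.01 over all detected genes, and their range ran from -2.76 to 0.52. The set thus held a lower group, at -1.27 or below, and a group close to 0, between -0.21 and 0.52. Of the 24 probe sets, 17 lay above both floors, 3 above 1 floor and 4 below both. Among the 17 probe sets above both floors, 6 were lower and 1 was higher by 2-fold or more, and 10 differed by less. Over all 20742 single-symbol probe sets above both floors, 13.4% were lower and 14.7% higher by 2-fold or more.

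**Figure D1:**
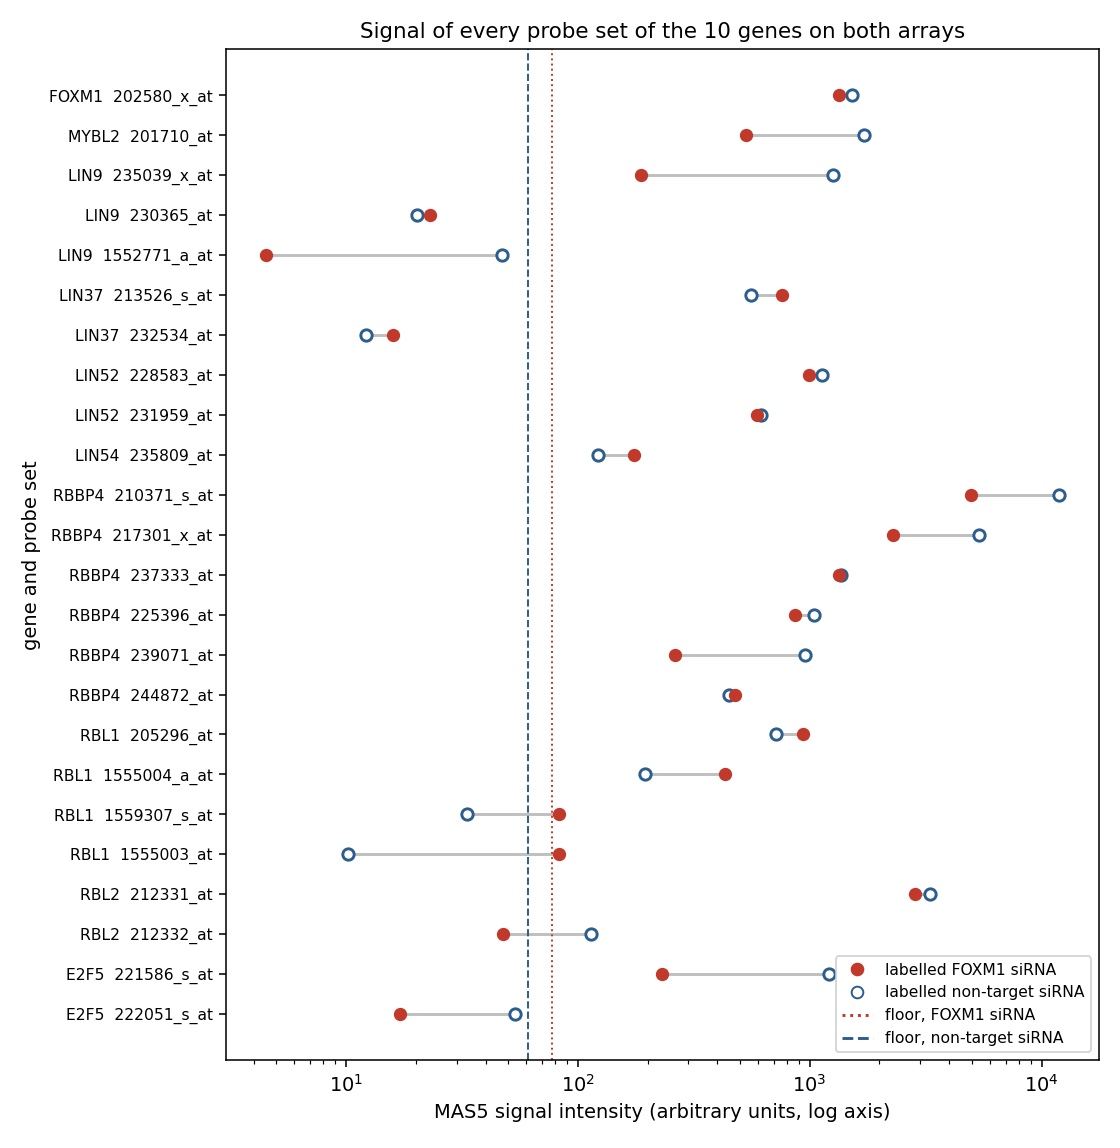
MAS5 signal (log axis) of each of the 24 probe sets of the 10 genes on the FOXM1 siRNA-labelled array (filled red) and on the non-target-labelled array (open blue), with 1 array each and no error bars. The grey line joins the signals of a probe set and the vertical lines are the floors of 77.7 and 60.8. Above the floors, the gaps are widest for LIN9 (-2.76 on the log2 scale), E2F5 (-2.40), 239071_at of RBBP4 (-1.85) and MYBL2 (-1.69), and the RBBP4 probe sets divide into 3 with a wide gap and 3 with almost none.

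The MuvB core genes were not alike. LIN9 and RBBP4 were at least 2-fold lower, and LIN37, LIN52 and LIN54 differed by less than 2-fold. LIN9, a structural subunit that together with LIN52 holds B-MYB, had the lowest value of the 10 genes. Its probe set 235039_x_at read 187 on the FOXM1 siRNA-labelled array and 1264 on the non-target-labelled array, a log2 difference of -2.76 or a 6.78-fold lower signal. At least 1.64% of detected genes were as low or lower. The value rests on this 1 probe set of the cross-hybridising kind. The other LIN9 probe sets were below both floors, 230365_at with 22.9 and 20.3 and 1552771_a_at with 4.51 and 47.1 on the FOXM1 siRNA-labelled and the non-target-labelled array, and give no second reading.

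RBBP4, a histone-binding WD40 protein that MuvB shares with several chromatin complexes, had the most probe sets, and they fell into 2 groups. The brightest, 210371_s_at, read 4944 on the FOXM1 siRNA-labelled array and 11932 on the non-target-labelled array, a 2.41-fold lower signal (log2 difference -1.27). Close to it were 217301_x_at, with 2286 against 5388 (-1.24), and the dimmer 239071_at, with 263 against 951 (-1.85). The other group showed almost no difference. There 225396_at read 868 on the FOXM1 siRNA-labelled array and 1043 on the non-target-labelled array (-0.27), 237333_at read 1334 against 1370 (-0.04) and 244872_at read 475 against 450 (0.08). The SD over the 6 log2 differences was 0.79, wider than the 0.46 typical of a probe set. RefSeq lists 7 RBBP4 pseudogenes, and probe sets ending in _s_at or _x_at can bind more than one transcript, so which transcripts the brightest probe sets measured is uncertain. Over the probe sets ending in plain _at, the brightest gave -0.04 and the call of RBBP4 was lost. These were themselves split, with 239071_at at -1.85 and the others between -0.27 and 0.08.

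LIN52, the subunit that docks the pocket proteins once the kinase DYRK1A has phosphorylated it, was nearly equal on the arrays. Probe set 228583_at read 996 on the FOXM1 siRNA-labelled array and 1128 on the non-target-labelled array, and 231959_at read 595 against 615. The log2 differences of -0.18 and -0.05 of these 2 probe sets had an SD of 0.09. LIN37, which repression by DREAM requires, was slightly the other way. Its probe set 213526_s_at read 757 on the FOXM1 siRNA-labelled array and 559 on the non-target-labelled array (log2 difference 0.44), within the probe set SD, and 232534_at was below both floors. LIN54, the CHR-binding subunit, read 175 against 122 in its only probe set, 235809_at. Its log2 difference of 0.52 was the highest of the 10 genes and just exceeded the probe set SD, and its signals lay nearer to the floors than those of any other member's brightest probe set.

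The pocket protein genes differed by less than 2-fold in their brightest probe sets. RBL1 read 940 on the FOXM1 siRNA-labelled array and 717 on the non-target-labelled array in 205296_at, a log2 difference of 0.39. A second RBL1 probe set, 1555004_a_at, read 431 against 195, which is 2.20-fold higher (1.14) and the only reading past 2-fold in that direction among the members' probe sets above both floors. The other RBL1 probe sets also lay higher on the FOXM1 siRNA-labelled array but barely above its floor: 1559307_s_at read 83.3 against 33.2, and 1555003_at read 83.4 against 10.2. With the floor in place of the dimmer signal each is at least 1.37-fold higher. All 4 RBL1 probe sets thus lay on the same side, with sizes from 0.39 to 1.14 among those above both floors. RBL2, the pocket protein most abundant in resting cells, was close to equal, with 2857 against 3296 in 212331_at (-0.21). Its second probe set, 212332_at, was below the floor on the FOXM1 siRNA-labelled array (47.6) and read 114 on the non-target-labelled array, so that it was at least 1.47-fold lower.

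E2F5, a repressor E2F that enters DREAM with a pocket protein, was lower. Probe set 221586_s_at read 231 on the FOXM1 siRNA-labelled array and 1216 on the non-target-labelled array, a log2 difference of -2.40 or a 5.27-fold lower signal. As low or lower were 2.51% of detected genes. The second probe set, 222051_s_at, read 17.1 against 53.7, below both floors, and gives no second reading. E2F4, the closest relative of E2F5 and the other E2F of DREAM, stood on the other side. Its brightest probe set, 38707_r_at, read 1047 on the FOXM1 siRNA-labelled array and 393 on the non-target-labelled array, 2.66-fold higher, and its second probe set gave a log2 difference of 0.12.

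**Figure D2:**
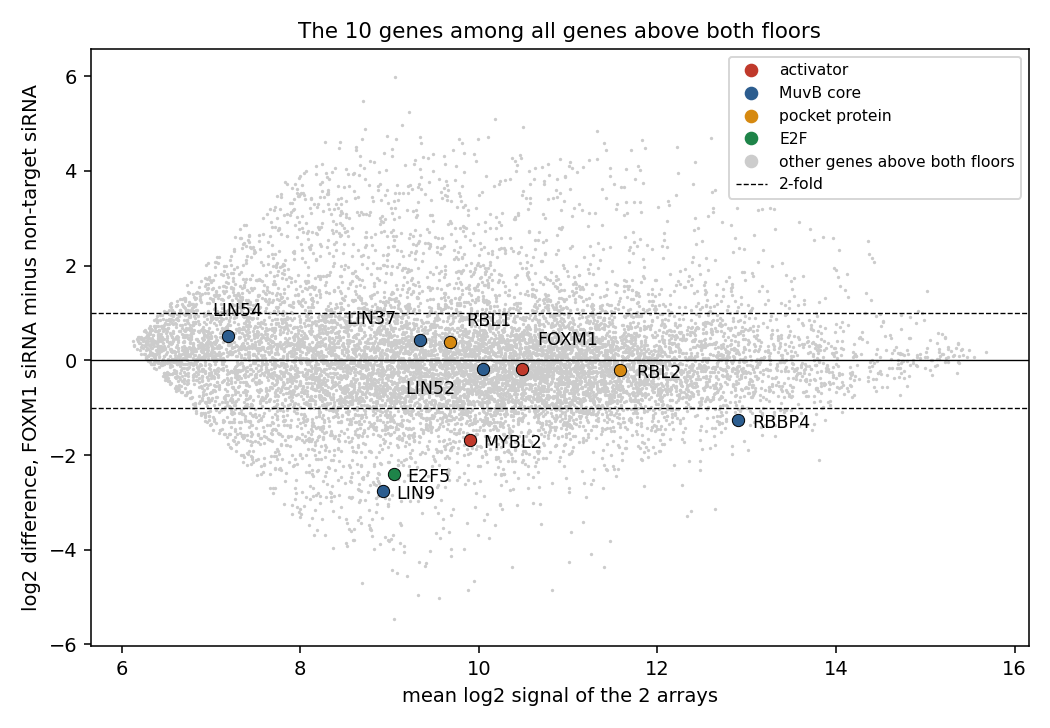
Log2 difference between the arrays (FOXM1 siRNA minus non-target siRNA, as labelled) against the mean log2 signal for the 11395 genes above both floors, 1 probe set per gene, in grey, with the 10 genes in colour by role. LIN9 (-2.76), E2F5 (-2.40), MYBL2 (-1.69) and RBBP4 (-1.27) lie below the lower 2-fold line, and the other members lie between -0.21 and 0.52.

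The call of the lower group depended on how probe sets were combined. All 4 genes stayed below the 2-fold line under the alternative scalings, floors and pseudocount tried. The floors could not change them, because their brightest probe sets stood above every floor tried. With the median of all probe sets of a gene, 2 of the 10 genes were at least 2-fold lower (MYBL2 at -1.69 and E2F5 at -1.02), against 10.7% of all detected genes. LIN9 turned to 0.35 in that setting, which is the log2 ratio of the 2 floors, because its other probe sets lay below both and were set to the floor. Without probe sets ending in _x_at or _s_at, 6 of the 10 genes could still be detected and only MYBL2 was at least 2-fold lower, against 15.1% of genes. FOXM1 and E2F5 then had no probe set, and those left for LIN9 and LIN37 were below both floors. MYBL2 stayed between -1.99 and -1.55 in every alternative tried. Only the scalings and the pseudocount could move it. It has 1 probe set, ending in plain _at and above every floor tried, so the floors and the probe set rules are no check of its call.

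**Figure D3:**
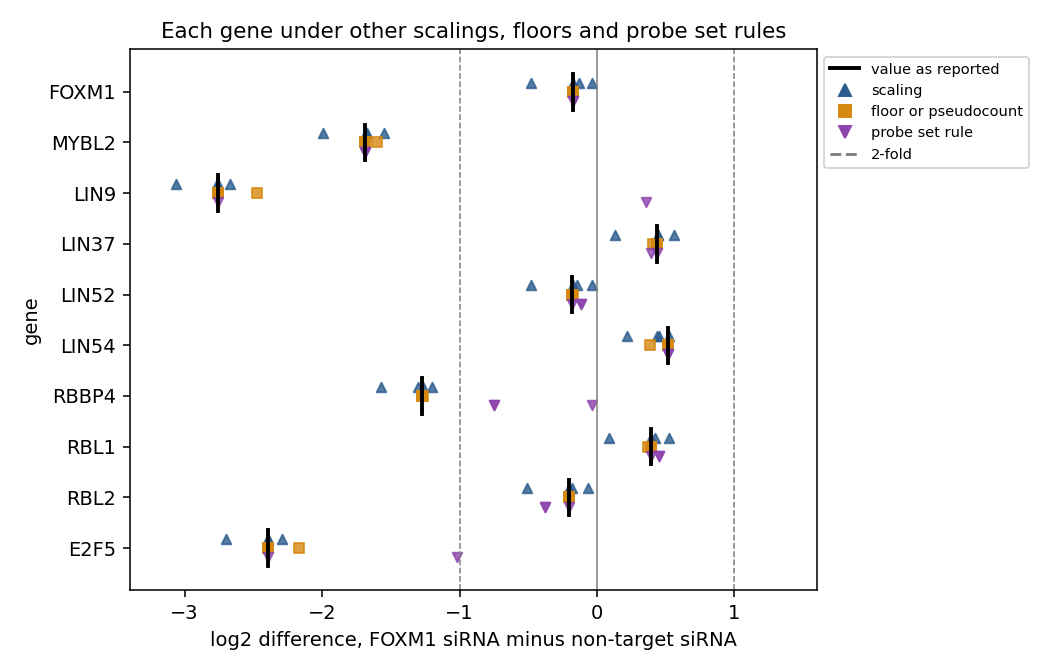
Log2 difference of each of the 10 genes as reported (black bar) and under other scalings (triangles up), floors or a pseudocount (squares) and probe set rules (triangles down). MYBL2 stays below the 2-fold line at -1 in all of them, LIN9 and RBBP4 cross it under other probe set rules, and FOXM1 lies between -0.48 and -0.03. MYBL2 and FOXM1 have 1 probe set each, whose value the floors and probe set rules could not move.

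Other genes of the same pathway were read from 4 lists that overlap in part and were chosen with earlier results of these arrays known. Among 23 other genes of DREAM assembly (further E2F, DP, MYB, pocket protein and kinase genes), 6 were lower and 4 higher by 2-fold or more on the FOXM1 siRNA-labelled array, with a median of -0.31. These shares of 26.1% and 17.4% stand beside 15.4% lower and 16.0% higher over all detected genes, so the higher share was near the background. E2F3, an activator E2F, read 735 on the FOXM1 siRNA-labelled array and 4433 on the non-target-labelled array (6.03-fold lower), and its other probe set gave -1.74. The cyclin genes, whose kinases release pocket proteins, were split: CCND1 read 5456 against 1254 (4.35-fold higher) and CCND2 read 348 against 1616 (4.64-fold lower), and another CCND2 probe set gave 0.40. The remaining lower genes (named with their values already known) were the DP gene TFDP2 (-1.34), the kinase gene LATS1 (-1.07), the RBBP4 relative RBBP7 (-1.22) and MYB, below the floor on the FOXM1 siRNA-labelled array and at least 4.49-fold lower. Another TFDP2 probe set above both floors gave -0.39. The other higher genes, besides E2F4, were CCND3 (1.15) and CDKN1A (1.41), an inhibitor of the cyclin-dependent kinases. DYRK1A, which phosphorylates LIN52, and TFDP1, the main DP partner, differed by -0.14 and 0.08, values also picked after they were seen.

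FOXM1 regulators and partners were mostly near 0. Of 19 measured of 20, 1 was at least 2-fold lower, 1 higher and 17 under 2-fold, with a median of -0.20. The share of 5.26% in each direction stands beside 15.4% lower and 16.0% higher over all detected genes. The lower gene was SKP2, a ubiquitin ligase subunit gene that FOXM1 is known to activate, with 2133 on the FOXM1 siRNA-labelled array and 8003 on the non-target-labelled array (3.75-fold lower). The higher one was CCND1, given above.

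Targets of the complexes were read as a G2/M and a G1/S list. Of 50 genes listed as G2/M targets of B-MYB, FOXM1 and MuvB, 5 were at least 2-fold lower, 1 higher and 44 under 2-fold. Of these 50 genes, 39 lay below 0, and the median was -0.38. The spindle checkpoint kinase gene TTK read 1533 on the FOXM1 siRNA-labelled array and 4529 on the non-target-labelled array (2.95-fold lower), and the kinetochore gene NUF2 read 1569 against 4113 (2.62-fold lower). The higher gene was ANLN, a cytokinesis scaffold, with 7196 against 3283 (2.19-fold higher). Of 51 genes listed as G1/S targets of E2F factors and DREAM, 48 were measured. Among these 48, 15 were lower and 0 higher by 2-fold or more, 45 lay below 0 and the median was -0.76. CDC25A, a phosphatase that promotes entry into S phase, read 414 on the FOXM1 siRNA-labelled array and 3627 on the non-target-labelled array (8.75-fold lower), and the replication kinase gene CDC7 read 1059 against 6848 (6.47-fold lower). Against the 15.4% of all detected genes that were at least 2-fold lower, the G1/S share was 31.3% and the G2/M share 10.0%. Over all detected genes 16.0% were at least 2-fold higher, against 0% of the G1/S list and 2% of the G2/M list. The median over all detected genes was 0.01. The lists were not recomputed under the loess scaling, which moved FOXM1 from -0.18 to -0.03. Whether the lists differ from each other was not tested.

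**Figure D4:**
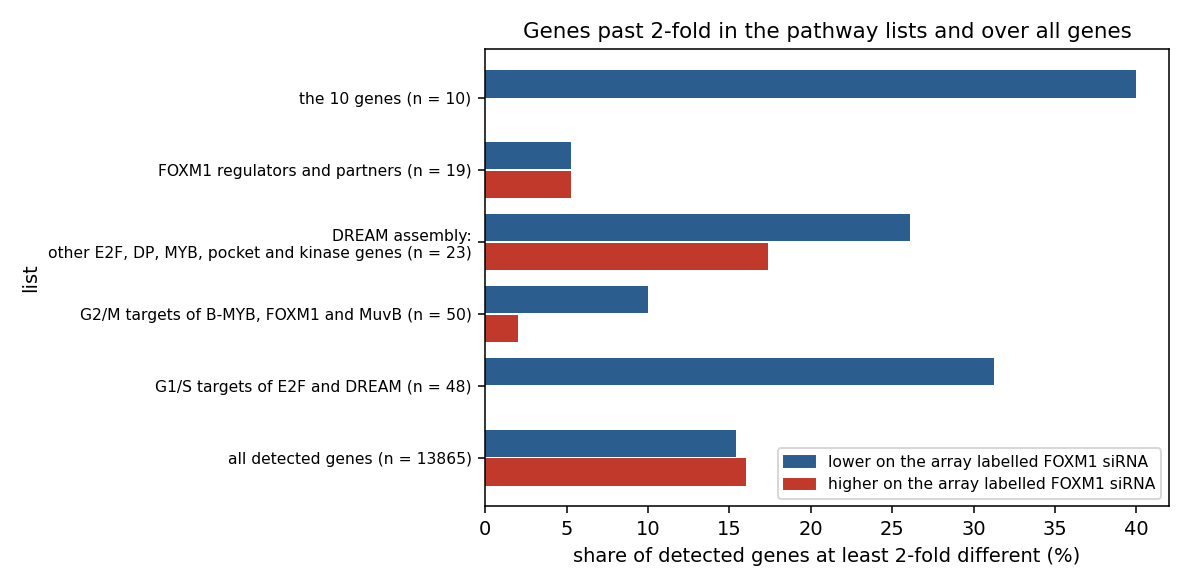
Share of detected genes at least 2-fold lower (blue) or higher (red) on the FOXM1 siRNA-labelled array, for the 10 genes, the 4 pathway lists and all 13865 detected genes. The bars show 40% lower and 0% higher for the 10 genes, and 15.4% and 16.0% for all genes.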

How the data were processed

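RNA of 2 samples, each on 1 array, was measured as biotin-labelled cRNA made with a 3' IVT kit, per the labels' protocols. The authors deposited intensities on a linear scale, 1 for each probe set, computed with MAS5 per the submitters' processing notes; its version, settings and detection calls are not given in the sources. The 2% trimmed means were equal, so arrays had been scaled as a whole, which sets the mean signal equal in both samples.

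Probe sets with 1 symbol in the platform annotation were named, with symbols updated through gene IDs (RefSeq, GRCh38.p14). Signals below the floor of each array were raised to it before log2. Of a gene's probe sets, the brightest (mean log2 signal) stood for it, and the gene was detected where this one passed the floor on either array; a gene past 1 floor has a bound, and 416 genes whose bound contradicted its side have no fold. Called means at least 2-fold. No test was possible with 1 array per group, and the number of arrays limits the precision. From each list, the text names up to 2 genes per direction with the largest called difference above both floors; the other list genes and markers it names were picked after their values were seen. The members, lists and floor were chosen with earlier results of these data known. With 2 arrays, genes most like a member were not sought. The calculation was tested on simulated data. Python 3.11.15, numpy 2.4.6, pandas 2.3.3 and, for loess (span 0.3), statsmodels 0.14.6 were used.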

Additional observations from a re-analysis of the deposited data

How the results depend on the processing

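Of 141 values recomputed under 12 alternatives, 134 moved by less than the spread of 0.46 per probe set (counts, by no more than 1.5 times). Those of the scalings (median centring, quantile, loess, hybridisation controls), of the floors (none, 2 times as high, common), of a pseudocount of 50 and of a 1.5-fold threshold were all among these. The floor settings could not move any value, because the brightest probe set of each of the 10 genes stood above every floor tried. Median centring and the hybridisation controls shift all genes by 1 constant below 0.46, so no gene could move past that spread. These settings are therefore no check of the gene values. The exceptions came from the probe set rule. The count of genes at least 2-fold lower, 4 as reported, was 2 with the median of the probe sets and 1 without probe sets ending in _x_at or _s_at. With the median of the probe sets LIN9 changed sign to 0.35, E2F5 was at -1.02 and RBBP4 at -0.75, because probe sets below both floors entered at the ratio of the floors (LIN9, E2F5) or 3 of the 6 probe sets differed little (RBBP4). RBBP4 was at -0.04 without _x_at and _s_at probe sets. With the median over probe sets above a floor on at least 1 array, chosen after seeing the data, 3 genes were lower and RBBP4 was at -0.75. The count of genes at least 2-fold higher was 0 in every alternative, and the median of the 10 genes ran from -0.50 to -0.05. Scaling to the 18 hybridisation controls moved the median of all detected genes to -0.29 and FOXM1 to -0.48, a size just past the 0.46, and made 23.1% of all genes at least 2-fold lower and 11.3% higher. No paired analysis was possible because each group holds 1 array. No array could be left out for the same reason.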
